A study of Mus musculus with 30 samples.

Results

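The 10 genes described here, Rac1, Rhoa, Cdc42, Cfl1, Limk1, Ppp1r9b, Dlg4, Ptk2, Pxn and Pak1, encode proteins that shape the actin of dendritic spines and of cell adhesions. Their members on the array were all probe sets that the platform annotation assigns to one of these symbols and to no other gene, and each probe set was kept apart. This gave 21 probe sets of 7 genes among the 45037 probe sets of the array without controls. There were 3 probe sets of Rac1, 3 of Rhoa, 4 of Cdc42, 2 of Cfl1, 3 of Limk1, 3 of Dlg4 and 3 of Pxn. Ppp1r9b, Ptk2 and Pak1 were not analysed here, since the annotation used assigns them no probe set.

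The measurements came from the whole hypothalamus of individual newborn female C57BL/6J mice, a common inbred strain, each with its own array. On the day of birth each mouse received 1 subcutaneous injection of 20 μl peanut oil that held 7.5 μg of estradiol benzoate (EB, an esterified estrogen) or no EB (vehicle), at a body weight of about 1.4 g. The hypothalamus was taken at 1, 3, 6, 12 or 24 h, which gives 10 groups of 3 arrays and 30 arrays in all. None of these groups was untreated, so both arms share the injection and the oil. Which pups shared a litter is not given in the sources used here, and p-values then measure the spread between these pups.

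The small GTPases encoded by Rac1, Cdc42 and Rhoa are switches that are on when bound to GTP and that pass signals to the actin cytoskeleton. Rac1 and Cdc42 act through p21-activated kinases and nucleation factors to build branched actin, while RhoA raises contractility, and both branches activate LIM kinase, which phosphorylates cofilin and stops it from severing filaments. In the neonatal hypothalamus and preoptic area, estradiol is known for changing the number of dendritic spines, and focal adhesion kinase, paxillin and cofilin belong to the proteins studied in that context.

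The values are MAS5 signals, which are probe intensities on a linear scale, after each array was scaled to a common median, and a level is compared only within a probe set. Array medians before scaling ranged from 28.0 to 66.9, and the arrays of 12 h were the brightest. Of the 15 hypothalamic marker genes, 13 were above the filter on dim probe sets, among them Otp, Sim1, Avp and Pomc, and Agrp and Rax were not tested. All 12 pan-neuronal markers were tested, against 4 of the 8 telencephalic ones, of which 5 were in the annotation. Of the 6 erythroid markers, 4 were in the annotation and 0 passed the filter. The summed telencephalic signal was 1215 on vehicle 6 h replicate 2 and 86.3 to 296 on all other arrays.

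Taken with the mean of all arrays removed, and as a description over 27022 probe sets, the profiles of 11 of the 30 arrays correlated better with another group than with the other arrays of their own. Among them was EB 6 h replicate 3, at 0.26 with the vehicle 12 h group and at 0.15 with its own. Vehicle 3 h replicate 3 was at 0.49 with the vehicle 1 h group and at 0.20 with its own. All 3 EB arrays of 3 h were among them too, at 0.0092 to 0.12 with their own group and at 0.15 to 0.18 with the closest one. These arrays enter the comparison at 3 h, which is therefore also given with each array left out. Because the tissue is a bulk sample, fewer cells of a type and less RNA per cell cannot be told apart.

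Of the 21 probe sets, 17 had a mean log2 signal above the lowest 40% and were tested with the rest of the array. The 4 below it, 1 each of Rac1, Rhoa, Limk1 and Pxn, read between 0.811 and 31.9 on all arrays and are not described further. The brightest probe set of each gene was 1451086_s_at for Rac1, with a mean scaled signal of 1745, and 1455138_x_at for Cfl1, with a mean of 5004. In these names an _s_at probe set can match more than one transcript, an _x_at probe set has probes that can match unrelated transcripts, and an _a_at probe set matches several transcripts of a gene.

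Rac1 was the member that differed between EB- and vehicle-treated mice. Rac1 encodes the GTPase that drives lamellipodia and the growth of spine heads, and its mRNA signal was lower 3 h after EB on both tested probe sets. On 1423734_at the 3 vehicle arrays of 3 h read 846, 899 and 856, and the 3 EB arrays read 542, 568 and 531. The groups did not overlap, and all 3 EB arrays lay far below the lowest vehicle array. The mean scaled signal was 867 ± 28.3 (SD, n = 3) in vehicle-treated mice, and EB-treated mice had a mean of 547 ± 19.1 (SD, n = 3). The log2 fold change was -0.66 (standard error 0.09, 95% confidence interval -0.85 to -0.48), with an adjusted p of 0.000261 from limma.

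The brighter Rac1 probe set, 1451086_s_at, showed a smaller difference in the same direction. Its vehicle arrays at 3 h read 2155, 2143 and 2097 and its EB arrays 1807, 1498 and 1644, again without overlap. The log2 fold change was -0.37 (standard error 0.08, 95% confidence interval -0.54 to -0.21), with an adjusted p of 0.0259 from limma. This call did not hold without vehicle 3 h replicate 1 or 2 or EB 3 h replicate 2 or 3 (adjusted p up to 0.124 from limma, log2 fold change between -0.44 and -0.31 over all 30 omissions). The call on 1423734_at held in all 30 omissions, between -0.69 and -0.64. The platform annotation gives the same source transcript for both probe sets. Within an array, the log2 signal of 1423734_at minus that of 1451086_s_at was 0.29 lower with EB than with vehicle at 3 h, and an exact permutation test (two-sided) gave p = 0.1, the smallest it can give with 3 arrays against 3.

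**Figure D1:**
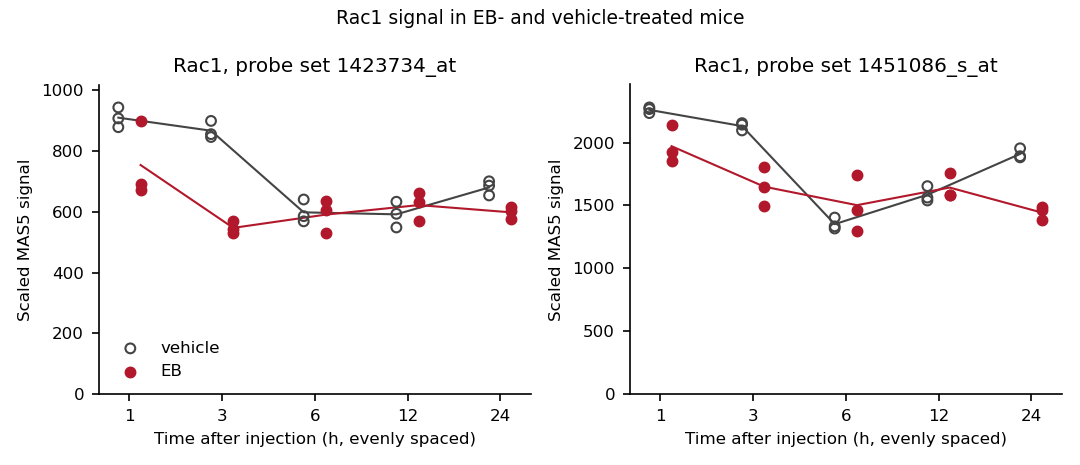
Scaled MAS5 signal (y axis, linear from 0) of the 2 tested Rac1 probe sets against time after injection (x axis, h, evenly spaced), where open symbols are vehicle arrays, filled symbols are EB arrays and lines join the means of 3 arrays. At 3 h the EB arrays lie at 531 to 568 on the left panel and 1498 to 1807 on the right, below all vehicle arrays of that time (vehicle arrays of 6 h lie at 569 to 641 and 1317 to 1404).

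Across the array, limma called 0.377% of probe sets lower and 0.0962% higher at 3 h, and of the 17 member probe sets it called 2 lower and 0 higher. Every EB array lay below every vehicle array on 5 of the 17, against 5.3% of all probe sets, and above on 3 of the 17, against 8.7%. With each gene taken by its brightest probe set, 0.0323% of 12388 genes were lower at 3 h and 0.129% higher. That lower share is 4 genes, Rac1, Chn1, Dld and Polr2m, which were named after their values were seen. Chn1 encodes chimaerin 1, a GTPase-activating protein that switches Rac off. Its brighter probe set read 227 to 263 with EB and 308 to 353 with vehicle at 3 h (log2 fold change -0.44, standard error 0.10, adjusted p = 0.0353 from limma), and at 24 h the log2 fold change was 0.09 (adjusted p = 0.736 from limma). The other Chn1 probe set was at -0.10 at 3 h (adjusted p = 0.815 from limma), so only one of the 2 was called.

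The vehicle-treated mice had their own course of Rac1 over the day. On 1451086_s_at the vehicle arrays read 2267, 2280 and 2235 at 1 h, 1404, 1334 and 1317 at 6 h, 1563, 1654 and 1540 at 12 h, and 1883, 1955 and 1892 at 24 h. After scaling the level was lower at 6 h than at 3 h by more than the spread of either group. It lay higher again at 24 h, between the 3 h and 12 h levels, with no overlap between any of the 5 vehicle groups. In the deposited signals the vehicle means were 2169, 1891, 1201, 2497 and 1491 at 1, 3, 6, 12 and 24 h. The 12 h mean was the highest there, so its place in the course depends on the scaling of the arrays. On 1423734_at the deposited vehicle mean was also higher at 12 h (933.1) than at 1 h (875.5). The effect of time within vehicle passed limma's F test on both probe sets (F = 29.5, adjusted p = 2.02e-07 on 1451086_s_at and F = 21.5, adjusted p = 2.6e-06 on 1423734_at).

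On 1423734_at the EB arrays of 3 h, at 531 to 568, lay just under the range of the vehicle arrays of 6 h. At 6 h the EB arrays read 529, 636 and 607, at 12 h 663, 633 and 571, and at 24 h 602, 617 and 575. Vehicle arrays read 569, 641 and 586 at 6 h, 549, 593 and 633 at 12 h and 686, 700 and 654 at 24 h. At 6 h and 12 h the groups overlapped, and neither Rac1 probe set was called (log2 fold changes from -0.02 to 0.14). At 1 h the EB arrays of this probe set read 900, 691 and 671 against 879, 908 and 944 with vehicle, so that EB replicate 1 lay among the vehicle arrays while the other two lay below them (log2 fold change -0.28, adjusted p = 0.338 from limma). On 1451086_s_at the EB arrays of 1 h, at 2139, 1853 and 1923, lay below all vehicle arrays of that time (-0.20, adjusted p = 0.472 from limma).

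At 24 h the 2 Rac1 probe sets were again both lower with EB, but the order of their sizes was the other way round. On 1451086_s_at the EB arrays read 1381, 1461 and 1486, below all vehicle arrays of that time. The log2 fold change was -0.41 (standard error 0.08, 95% confidence interval -0.57 to -0.24, adjusted p = 0.00393 from limma), and it held in all 30 omissions of 1 array. It did not pass without scaling or in the methods' two-factor test on the deposited signals (adjusted p up to 0.674). On 1423734_at it was -0.19 (adjusted p = 0.312 from limma), although these groups did not overlap either. The within-array difference of the 2 probe sets was 0.22 higher with EB at 24 h (exact permutation test, two-sided, p = 0.1).

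The effect of EB on Rac1 differed between times. The treatment by time interaction passed on both probe sets, with F = 10.2 (adjusted p = 0.016 from limma) on 1423734_at and F = 9.46 (adjusted p = 0.0192) on 1451086_s_at, and on none of the other 15, against 0.951% of all probe sets. Neither passed without scaling or in the methods' test (adjusted p up to 0.238 and 0.287), and 1451086_s_at did not pass with no filter on dim probe sets either. Averaged over the 5 times, 1423734_at was lower by -0.22 (standard error 0.04, adjusted p = 0.0233 from limma), a call made for 0.0555% of all probe sets in the lower direction, while 1451086_s_at was at -0.16 (adjusted p = 0.0911). The first of these did not pass in 6 of the 30 omissions of 1 array (adjusted p up to 0.0548), nor without scaling or in the methods' test (up to 0.779). Between 1 h and 24 h, 1423734_at fell by 0.42 on the log2 scale in vehicle-treated mice (adjusted p = 0.00533 from limma).

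Signals of the array's own controls were set beside these values. The control probe set of 18S ribosomal RNA read 781 to 875 on the EB arrays of 3 h and 736 to 949 on the vehicle arrays, after scaling, and the summed signals of each marker list with a tested gene, leptomeningeal and pan-neuronal ones included, overlapped between the groups as well. At 24 h the 18S control read 2067 to 2620 with EB and 777 to 1345 with vehicle, without overlap. Within vehicle the 18S control was highest at 6 h (2111 to 2193), where Rac1 was lowest on 1451086_s_at. The 18S control was lowest at 1 h (666 to 740), where Rac1 was highest after scaling. Its part in the Rac1 values at 6 h and 24 h was not tested.

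No probe set of Rhoa or Cdc42 passed the threshold at 3 h. Of the 8 probe sets of Rac1, Rhoa and Cdc42, 7 had a log2 fold change below 0 at 3 h, and of the 4 of Cfl1 and Limk1 and the 2 of Pxn none did. Over all probe sets tested the median was 0.05. Cdc42 encodes the GTPase of filopodia, and on 1415724_a_at its EB arrays read 813, 561 and 690 at 3 h and its vehicle arrays 977, 866 and 935. The log2 fold change was -0.44 (standard error 0.12, 95% confidence interval -0.69 to -0.19, adjusted p = 0.103 from limma). It passed without scaling (adjusted p = 0.0286), after quantile normalization (0.043) and without EB 3 h replicate 1 (0.0245), all from limma. This probe set was also lower at 6 h than at 1 h in both groups, with 699 to 758 against 945 to 1069 in vehicle-treated mice. The other 3 Cdc42 probe sets were at -0.16, -0.11 and 0.11 at 3 h, so that not all probe sets of the gene pointed the same way.

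Rhoa, which encodes the GTPase of stress fibres and contraction, moved less. On 1437628_s_at the EB arrays at 3 h read 832, 720 and 793 and the vehicle arrays 888, 934 and 871. The groups did not overlap, and the adjusted p from limma was 0.216 for a log2 fold change of -0.20 (standard error 0.07). At 12 h the same probe set read 916, 836 and 843 with EB and 718, 777 and 815 with vehicle, higher with EB and without overlap (0.17, adjusted p = 0.738 from limma). On the brighter 1450632_at the groups overlapped at all 5 times, and its log2 fold changes lay between -0.15 and 0.01.

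**Figure D2:**
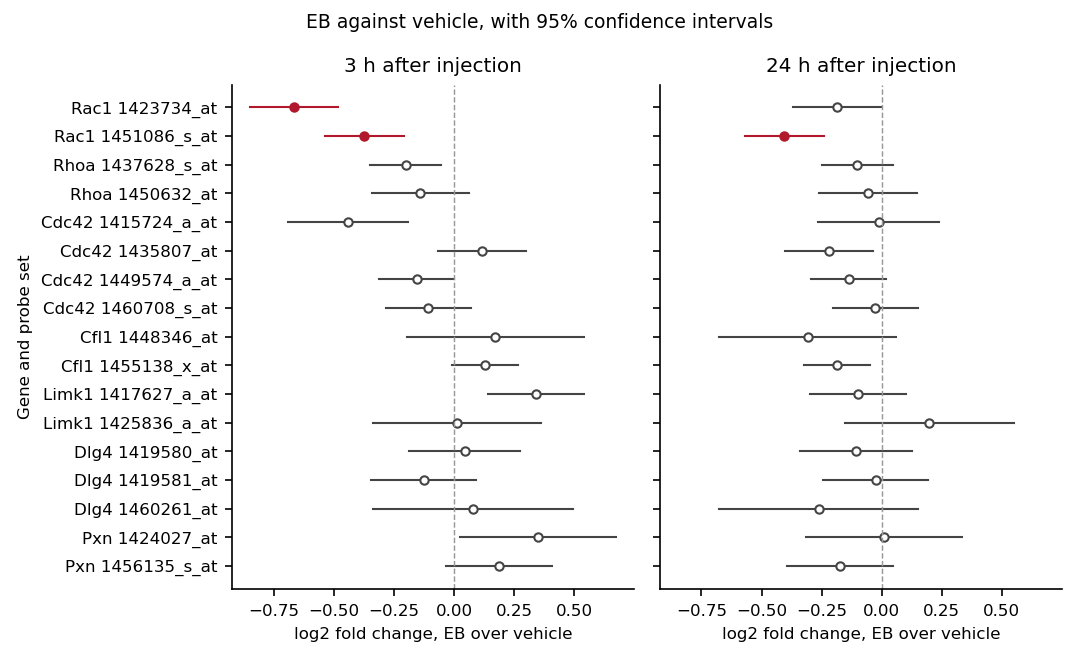
Log2 fold change of EB over vehicle (x axis) for each of the 17 tested member probe sets (y axis) at 3 h and 24 h, with bars for the 95% confidence interval from limma and filled symbols for an adjusted p under the threshold. Rac1 carries the only filled symbols, at -0.66 and -0.37 at 3 h and -0.41 at 24 h, and at 24 h 15 of the 17 values lie below 0.

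Downstream of the GTPases, the 4 probe sets of Limk1 and Cfl1 lay above 0 at 3 h, but none was called. The median of all probe sets tested also lay above 0 then, at 0.05. Limk1 encodes the kinase that inactivates cofilin, and on 1417627_a_at its EB arrays read 331, 296 and 371 at 3 h against 283, 230 and 277 with vehicle. The groups did not overlap, but limma gave an adjusted p of 0.117 for the log2 fold change of 0.34 (standard error 0.10, 95% confidence interval 0.14 to 0.54). The dimmer Limk1 probe set, 1425836_a_at, was at 0.01 and overlapped. Cfl1, which encodes cofilin 1, the severing protein itself, was at 0.17 on 1448346_at and 0.13 on 1455138_x_at (adjusted p = 0.727 and 0.425 from limma).

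Over the day the largest movement of any member was that of Cfl1 on 1448346_at, and it was shared by both treatments. At 12 h the vehicle arrays read 1664, 1681 and 1806 and the EB arrays 1895, 1670 and 1828. On all other arrays but one the probe set read between 629 and 1003, so the 12 h arrays stood at 1.82-fold (vehicle) and 1.90-fold (EB) of the vehicle 1 h mean. The exception was EB 6 h replicate 3, whose profile was closest to the vehicle 12 h group, at 2043, while the other EB arrays of 6 h read 951 and 738. Time passed limma's F test within vehicle (F = 12.8, adjusted p = 0.000108) and within EB (F = 17.0, adjusted p = 3.7e-05). Without that array F was 61.2 within vehicle and 82.8 within EB.

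The brighter Cfl1 probe set, 1455138_x_at, showed no such rise after scaling. It read 4691 to 5226 at 12 h with vehicle and 4964 to 5117 with EB, within the 4393 to 5646 of all arrays, and time did not pass within vehicle (F = 1.32, adjusted p = 0.391 from limma). Time did pass within vehicle on this probe set without scaling (F = 17.06, adjusted p = 1.84e-07 from limma). It also passed after quantile normalization (F = 13.41, adjusted p = 9.05e-05 from limma) and in the methods' test (F = 25.77, adjusted p = 7.13e-07). Its deposited vehicle mean was 4978 at 1 h and 7904 at 12 h, on the brightest arrays. The 2 probe sets of the gene therefore disagreed on the 12 h level after median scaling, and the flat course of the brighter one depends on that scaling. At 24 h both had EB arrays below all vehicle arrays, at 704, 660 and 629 against 861, 821 and 783 on 1448346_at (log2 fold change -0.31, adjusted p = 0.43 from limma) and at 4393, 4567 and 4719 against 5307, 5047 and 5207 on 1455138_x_at (-0.19, adjusted p = 0.147 from limma). Without EB 6 h replicate 3 the first of these had the same size and an adjusted p of 0.0322 from limma.

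**Figure D3:**
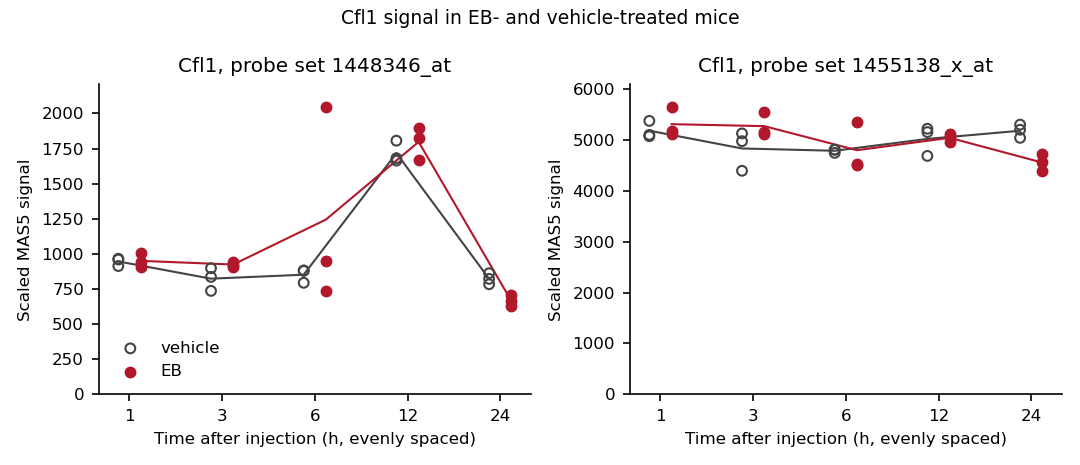
Scaled MAS5 signal (y axis, linear from 0) of the 2 Cfl1 probe sets against time after injection (x axis, h, evenly spaced), where open symbols are vehicle arrays, filled symbols are EB arrays and lines join the means of 3 arrays. On 1448346_at the 12 h arrays lie at 1664 to 1895 and EB 6 h replicate 3 at 2043, above all other arrays, whereas 1455138_x_at stays between 4393 and 5646.

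Dlg4 encodes PSD-95, the main scaffold of excitatory postsynapses, and none of its 3 probe sets was called for EB at any time. At 3 h they were at 0.04, -0.13 and 0.08. On the brightest, 1419580_at, vehicle arrays read 401, 392 and 370 and EB arrays 456, 329 and 426 at 3 h, so the EB arrays lay on both sides of the vehicle arrays. On 1419581_at the EB arrays of 1 h, at 305, 326 and 266, lay below the vehicle arrays at 349, 401 and 330 (log2 fold change -0.27, adjusted p = 0.47 from limma). For the brightest probe set the 95% confidence interval at 3 h ran from -0.19 to 0.28. Changes inside it are compatible with these arrays, but the interval is not a limit of what could be detected with 3 arrays a group. Over time within vehicle, 1419580_at was highest at 12 h (460, 493 and 490) and the dim 1460261_at lowest then (39.8, 40.8 and 35.4), 2 probe sets of the gene that moved in opposite directions. Both passed the F test for time (adjusted p = 0.0401 and 0.0155 from limma). The first did not pass after quantile normalization or with no filter (up to 0.17), nor in 8 of the 30 omissions, those of vehicle 1 h replicates 1 and 3, 6 h replicates 2 and 3, 12 h replicates 1, 2 and 3 and 24 h replicate 2. The second did not pass without scaling, in the methods' test (up to 0.264) or without vehicle 12 h replicate 3.

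Pxn encodes paxillin, the adaptor that joins focal adhesion kinase to integrin complexes. On 1424027_at its EB arrays read 71.3, 78.5 and 103 at 3 h and its vehicle arrays 65.7, 64.2 and 66.4, without overlap (log2 fold change 0.35, standard error 0.16, adjusted p = 0.352 from limma). EB replicate 3 was well above the other two. Both Pxn probe sets changed over the day in both treatments by the F test for time (adjusted p between 0.0148 and 0.0433 from limma), with the highest means at 12 h, 1.44-fold (vehicle) and 1.56-fold (EB) of the vehicle 1 h mean on 1424027_at, and 1.31-fold and 1.38-fold on 1456135_s_at. On 1456135_s_at neither call passed after quantile normalization (0.0827 within vehicle and 0.0624 within EB), and the call within EB was lost in 4 of the 30 omissions. On 1424027_at the call within EB was lost with no filter and in 13 of the 30 omissions (adjusted p up to 0.148), and that within vehicle without vehicle 12 h replicate 1. On 1456135_s_at EB and vehicle arrays overlapped at 3 h and at 24 h.

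Time passed limma's F test in both treatments for 9 of the 17 member probe sets, 2 of which, those of Rac1, also passed for the interaction. The share of all probe sets that passed in both is not given here, so the 9 cannot be set against it. Time passed within vehicle for 11 of the 17 probe sets, where 34.1% of all probe sets passed, and within EB for 12 of the 17, where 22.8% passed. Rac1, Rhoa on 1437628_s_at and Cdc42 on 1415724_a_at and 1449574_a_at had lower means at 6 h than at 1 h in both treatments, and Pxn had higher ones. The sources used here do not say whether arrays of one time were processed together, so time after injection, time of day and array processing cannot be told apart. Between 1 h and 24 h, limma called 1 of the 17 lower in vehicle-treated mice (1.8% of all probe sets lower, 4.97% higher) and 4 of the 17 lower in EB-treated mice (5.51% lower, 4.71% higher). The 4 were both Rac1 probe sets at -0.32 and -0.45, Cdc42 on 1449574_a_at at -0.33 and Cfl1 on 1455138_x_at at -0.22, and the last of these turned to 0.01 after quantile normalization.

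**Figure D4:**
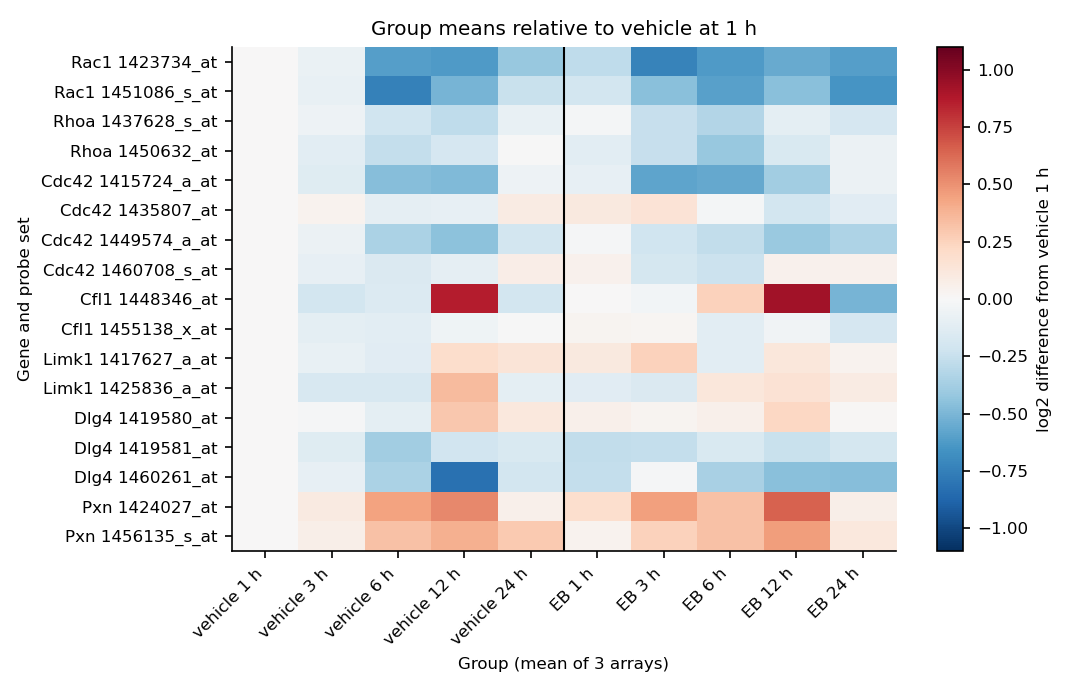
Log2 difference of each group's mean after scaling (colour, red above and blue below) from the vehicle 1 h mean for the 17 tested member probe sets (y axis) in the 10 groups (x axis, vehicle left of the line and EB right of it). Rac1 lies below the vehicle 1 h mean in all other groups, by 0.07 and 0.08 at 3 h in vehicle and by 0.73 and 0.46 at 3 h in EB, Cfl1 on 1448346_at is red at 12 h in both, and Pxn is red at 6 h and 12 h in both.

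At 1, 6 and 12 h no member passed for EB against vehicle. Of all probe sets, 0.0037% passed at 1 h, and the share was 0% at 6 h and 0% at 12 h, by limma. With an unadjusted p under 0.05, 3 of the 17 members stood out at 1 h, 1 at 6 h and 1 at 12 h, against 2332, 1626 and 1774 of the 27022 probe sets. The 3 at 1 h were both Rac1 probe sets and Dlg4 on 1419581_at, all lower. The methods' two-factor test on the deposited signals without moderation also called 0 members at these times.

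At 24 h limma called 2.19% of all probe sets lower and 0.581% higher, and of the 17 members 1 lower and 0 higher. EB arrays lay below all vehicle arrays on 8 of the 17, against 14.3% of all probe sets, and 15 of the 17 log2 fold changes were below 0, with a median of -0.11 against -0.01 over all probe sets. Without scaling the median over all probe sets at 24 h was 0.22 and that of the members 0.12, and no member was called, so the sign of the members' median depends on the scaling of the arrays, while it lay below the median of all probe sets either way.

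To place the members in their pathway, 6 lists with 140 genes were read by each gene's brightest probe set, and 125 of them were tested. At 3 h 0 of the 125 were lower and 0 higher by limma, and the median log2 fold change was 0.08 against 0.06 over the 12388 genes. Among the 21 exchange factors, GTPase-activating proteins and dissociation inhibitors, and the 23 effectors, none was called at 3 h or 24 h.

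At 24 h, 9 of the 125 were lower and 0 higher, that is 7.2% of the listed genes lower, against 2.69% of the 12388 genes lower and 0.476% higher. Of these, 7 were among the 26 tested actin nucleation and filament genes (median log2 fold change -0.17, with 23 of 26 below 0), 1 among the 21 postsynaptic genes and 1 among the 22 focal adhesion genes. Tmsb10, which encodes the actin monomer-binding thymosin β10, read 8798 to 10460 with EB and 13290 to 15210 with vehicle (log2 fold change -0.59, adjusted p = 0.000734 from limma). Actb, cytoplasmic β-actin, read 7401 to 8460 and 10920 to 12480 (-0.59, adjusted p = 0.000686). Tmsb4x, thymosin β4, read 8182 to 9340 and 11540 to 12700 (-0.47, adjusted p = 0.00106). After scaling, such levels were also seen with vehicle at another time. Vehicle arrays of 12 h read below the EB arrays of 24 h for Tmsb10 (7143 to 8082) and Actb (6630 to 7263). For Tmsb4x the vehicle arrays of 12 h (7923 to 8288) reached as low as them. Before scaling, array medians were 61.5 to 66.9 for vehicle at 12 h and 35.4 to 41.1 for EB at 24 h. The 12 h arrays were thus scaled down to the common median, and how they compare with the EB arrays of 24 h depends on this.

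The next in size was Dbn1, which encodes drebrin, an actin-binding protein of dendritic spines. It read 1151 to 1181 with EB and 1511 to 1526 with vehicle (log2 fold change -0.39, standard error 0.09, adjusted p = 0.0136 from limma). The remaining 3, Actg1 (γ-actin), Pfn2 (profilin 2, which delivers actin monomers to filament ends) and Arpc4 (a subunit of the Arp2/3 complex), were at -0.36, -0.34 and -0.30. Outside the actin list, Nlgn2, which encodes the adhesion protein neuroligin 2 of inhibitory synapses, was at -0.30 (adjusted p = 0.0355 from limma). Git2, a GTPase-activating protein of the Arf family that binds paxillin, was at -0.44 (adjusted p = 0.0248 from limma). The calls of Nlgn2 and Git2 were each lost in 5 of the 30 omissions of 1 array (adjusted p up to 0.183 and 0.135 from limma). That of Arpc4 was lost in 6 (up to 0.181), those of Dbn1 and Pfn2 in 3 each and that of Actg1 in 1. In all 9 the groups of 24 h did not overlap, but the 9 were called on these same arrays, so this adds no support. Over all probe sets, 14.3% had every EB array below every vehicle array at 24 h.

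**Figure D5:**
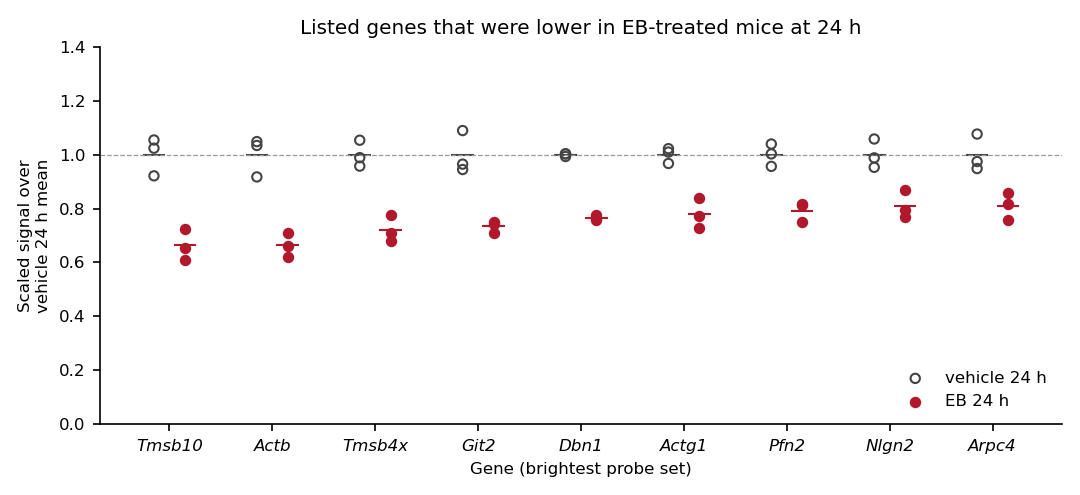
Scaled signal of each array at 24 h divided by the mean of the 3 vehicle arrays of 24 h (y axis, from 0) for the 9 listed genes that limma called lower (x axis, brightest probe set of each), where open symbols are vehicle arrays, filled symbols are EB arrays and bars mark the means. For all 9 genes the EB arrays lie below all vehicle arrays.

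The count of actin genes at 24 h moved with the processing. It was 7 after scaling by the median, 0 without scaling, 3 after quantile normalization and 11 with array weights. After quantile normalization Tmsb10 and Tmsb4x were no longer called, and Actg1 and Pfn2 turned to 0.10 and 0.03. The count was 3 without EB 24 h replicate 1. Beside the higher 18S control of the EB 24 h arrays, 17 of the 19 tested leptomeningeal markers were lower at 24 h (median log2 fold change -2.33), and their summed signal was 886 to 2749 with EB and 3972 to 4919 with vehicle. Of these 19 markers, 2 read at or under the floor of 1 on at least 1 EB 24 h array and none on a vehicle 24 h array. The summed signal of the 12 pan-neuronal markers was 34150 to 36490 with EB and 38870 to 41230 with vehicle, with 1 of the 12 called lower. The summed signals of the astrocyte and radial glia markers (10800 to 11600 with EB, 12850 to 14000 with vehicle), of the microglia and macrophage markers (929 to 1010 and 1083 to 1193) and of the endothelial and mural markers (1396 to 1685 and 1710 to 1805) did not overlap either, and those of the hypothalamic, oligodendrocyte and telencephalic markers did. Called lower among them were Fabp7 of radial glia (log2 fold change -0.33) and the macrophage genes Mrc1 (-1.69) and Lyve1 (-4.23). The part of these cell types and of the 18S signal in the 24 h values was not tested.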

How the data were processed

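Hypothalamic RNA of individual newborn female mice was hybridised to GeneChip Mouse Genome 430 2.0 arrays, 1 mouse to an array. The deposited values are MAS5 intensity signals, not logged, with the software version and any scaling not given in the sources used here, and they took fold changes with other software from these signals. Here every array's median was set to the mean of the 30 medians (41.3), signals under 1 were set to 1, and log2 was taken. The 64 control probe sets and the lowest 40% by mean log2 signal (a mean signal under 21.9) were left out, and 27022 of 45037 probe sets remained. Of the 45037, 34945 carry 1 gene symbol in the platform annotation, 932 several and 9160 none, and a probe set with several was not used by name. A model of 10 group means over the 30 arrays was fitted with limma 3.58.1 (R 4.3.3), moderated by eBayes with an intensity trend. Contrasts and F tests were adjusted by the Benjamini-Hochberg method over all 27022 probe sets with a threshold of 0.05, and the fit was tested on simulated data with known changes. Plots were drawn with matplotlib 3.10.9.

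The members and lists were chosen with earlier results of these data known. Named are all member probe sets, and from each pathway list at most 4 genes past the threshold at a time by size of change. The values of 1 of the 6 lists are not reported here on their own. Actg1, Pfn2 and Arpc4 are named beyond that rule because all called genes are plotted. The study compares treatment and time in a two-factor design, and the contrasts of EB with vehicle at 3 h share no array with those at 24 h. With 3 arrays against 3, the lowest p of an exact permutation test is 0.1, and the number of arrays limits the precision. The correlation of deviations of same-numbered EB and vehicle arrays was over 0.1 in 0 of 15 pairs, so replicate numbers were taken as names. No array columns were left without a sample (0). Alternatives covered scaling, the handling of low signals, filters, weights for arrays, a block for the replicate number, fits to 1 time, robust eBayes, the methods' test, and the omission of each array. The methods' test fitted the group means to the deposited signals without log2 or moderation, adjusted by Benjamini-Hochberg over all probe sets kept. The study's own ANOVA for each gene with a Bonferroni test was not run.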

Additional observations from a re-analysis of the deposited data

Results flagged for a closer look

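Of the 17 member probe sets, the effect of EB differed between times, by limma's treatment by time interaction, on both Rac1 probe sets. On 1423734_at F was 10.19 (adjusted p = 0.016 from limma), with log2 fold changes of -0.28, -0.66, -0.02, 0.07 and -0.19 at 1, 3, 6, 12 and 24 h. It did not pass without vehicle 24 h replicate 1 or EB 24 h replicate 1 (adjusted p up to 0.0555), nor without scaling or in the methods' test (up to 0.238). On 1451086_s_at F was 9.459 (adjusted p = 0.0192 from limma), with log2 fold changes of -0.20, -0.37, 0.14, 0.05 and -0.41. It did not pass without vehicle 24 h replicate 1 or 2 or EB 24 h replicate 1 (adjusted p up to 0.068), nor without scaling, with no filter or in the methods' test (up to 0.287).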

How the results depend on the processing

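At 3 h Rac1 on 1423734_at passed under 9 of 10 alternatives and in all 30 omissions of 1 array (adjusted p up to 0.00471). It did not pass in the methods' test (adjusted p = 0.0864), which is not the study's own ANOVA. On 1451086_s_at the 3 h call was lost under 3 of 10, with array weights, with only the 6 arrays of that time and in the methods' test (adjusted p up to 0.285). Counts of members called were 2 at 3 h, 1 at 24 h, 1 averaged over time, 1 and 4 for 24 h against 1 h in vehicle and EB, and 2 for the interaction. At 3 h they became 4 after quantile normalization and 1 with array weights or with only the 6 arrays of that time. At 24 h they became 2 with array weights or only those 6 arrays. Averaged over time they became 2 after quantile normalization. For 24 h against 1 h in vehicle they became 3 without scaling, 3 after quantile normalization, 4 with array weights and 2 in the methods' test. Over all probe sets, lower calls of that contrast went from 487 to 1628 without scaling and to 748 after quantile normalization. Higher calls went from 1342 to 26 and 948. At 3 h, lower calls over all probe sets went from 102 to 182 after quantile normalization, and averaged over time from 15 to 31. Other such totals are not given here. For the interaction the count of members became 1 with no filter. Without scaling, 0 were called at 24 h, averaged over time, for 24 h against 1 h in EB and for the interaction, and the methods' test called 0 in each of these and at 3 h. Listed pathway genes lower at 24 h were 9, against 0 without scaling and in the methods' test, 5 after quantile normalization and 14 with array weights, and actin genes were 7, against 0, 0, 3 and 11. After quantile normalization Cfl1 on 1455138_x_at for 24 h against 1 h in EB turned to 0.01 (0.0149), Actg1 at 24 h to 0.10 (0.103) and Pfn2 at 24 h to 0.03 (0.0298). The cause was not tested.

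Omitting 1 array at a time, between 1 and 3 members were called at 3 h, between 1 and 2 at 24 h, 0 to 2 averaged, 1 to 2 and 2 to 5 for 24 h against 1 h in vehicle and EB, 0 to 2 for the interaction, 7 to 12 for time within vehicle and 7 to 13 within EB, and 0 at 1, 6 and 12 h. Pathway genes lower at 24 h ranged from 3 to 12, actin genes from 3 to 8. With the replicate number as a block, 2 members were called at 3 h and 1 at 24 h, and the block changed no call of Rac1 for EB against vehicle. Of 127 values not called, 68 changed sign under some alternative. Without scaling the median of all probe sets was -0.20 at 3 h and 0.22 at 24 h. Dim probe sets and 3 arrays a group limit what could be detected.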
